A study of Mus musculus with 6 samples.

Results

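The miR-30 family is a group of microRNAs (miRNAs) that share the bases with which they recognise their targets. Here it was taken as the 8 listed arms, mmu-miR-30a-5p, mmu-miR-30a-3p, mmu-miR-30b-5p, mmu-miR-30c-5p, mmu-miR-30c-2-3p, mmu-miR-30d-5p, mmu-miR-30e-5p and mmu-miR-30e-3p, out of 1966 mature mouse miRNAs in the count table. The rule picks them by name, and it was written with earlier results of these data known. Small RNA was sequenced from extracellular vesicles (EVs) of 2 sources, with 3 libraries each. Colon EVs were collected from explants of colon kept in culture for 16 hours, and were cleaned on an iodixanol gradient, of which fraction 2 was sequenced. BMDC EVs came from dendritic cells grown out of bone marrow with GM-CSF until day 7. All 6 libraries came from Rab27A fl/fl mice, which carry a floxed allele of a gene needed for exosome release. The labels name no Cre and give no age. The labels and the study's methods give the gradient for colon EVs only, while its results text names a gradient for both sources, so it is not settled whether this step differed between them. Tissue explant and cell culture cannot be told apart from source. The labels do not say whether libraries of a source came from separate mice or cultures, so p-values measure the spread between these libraries, which may be technical.

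A miRNA gene is transcribed as a hairpin, and each side of the stem can give a mature miRNA, the 5p and the 3p arm. The mature arm guides the silencing complex to mRNAs that pair with its seed, bases 2 to 8, and represses them. The 5p arms of the miR-30 family are its main products. They are abundant in epithelia, and the family is known for roles in epithelial identity, autophagy and restraint of the epithelial-to-mesenchymal transition. In mammals the family is made from pairs of neighbouring hairpins, so that members of a pair can come from the same transcript.

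The mature sequences are shown because the family's members differ by few bases, which bears on how far their counts can be told apart. RefSeq (GRCm38.p6) gave 6 of the 8 arms. Each is written 5′ to 3′ with its seed in capitals. The 5p arms shown share the seed GUAAACA:
mmu-miR-30a-5p: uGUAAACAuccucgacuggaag
mmu-miR-30e-5p: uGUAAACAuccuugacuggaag
mmu-miR-30c-5p: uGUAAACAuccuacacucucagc
The 3p arms of 30a and 30e share the seed UUUCAGU:
mmu-miR-30a-3p: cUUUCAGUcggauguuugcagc
mmu-miR-30e-3p: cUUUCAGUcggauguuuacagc
The 3p arms of the 30c hairpins have the seed UGGGAGA. The second of them is not among the 8 arms, and is shown because it is the product that tells one 30c hairpin from the other:
mmu-miR-30c-2-3p: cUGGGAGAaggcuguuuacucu
mmu-miR-30c-1-3p: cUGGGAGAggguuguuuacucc
mmu-miR-30b-5p and mmu-miR-30d-5p were placed in the family by name.

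Counted from 1 at the 5′ end, 30a-5p and 30e-5p differ at 1 of 22 positions (C13U), and their 3p arms also differ at 1 of 22 (G18A). 30a-5p and 30c-5p are identical over their first 12 bases and differ at 5 positions after them. 30c-1-3p and 30c-2-3p differ at 3 positions (G9A, U12C and C22U). Of the 48 deposited values of the 8 arms 27 were not whole numbers, which counters write when a read is divided between features. How far reads were divided between 30a and 30e is not given in the sources used here, so the split between 30a and 30e is less certain than their sum. The only other mouse miRNA in RefSeq with the 5p seed, mmu-miR-384-5p, had 0 counts in all 6 libraries.

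The 6 hairpins lie in 3 pairs. Mir30a (chromosome 1, 23272269 to 23272339, plus strand, GRCm38) lies between annotated genes of its strand. Mir30c-2 (chromosome 1, 23291701 to 23291784, plus strand) lies in an exon of the lincRNA gene Gm27028, with 19361 bases between it and Mir30a. Mir30e (chromosome 4, 120772606 to 120772697, minus strand) and Mir30c-1 (chromosome 4, 120769534 to 120769622, minus strand) lie 2983 bases apart in an intron of Nfyc, which codes for a subunit of the transcription factor NF-Y. Mir30d and Mir30b lie on chromosome 15 with 3697 bases between them. The former lies in an exon of the lincRNA gene Gm20732, and the latter between annotated genes of its strand. 30c-5p is made by both Mir30c-1 and Mir30c-2 and cannot be assigned to a pair.

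Total counts per library ranged from 83997 to 645303, and 3 counts corresponded to 35.7 CPM (counts scaled to a common library size) in the smallest library and to 4.65 CPM in the largest. Levels below are CPM after scaling by the trimmed mean of M-values (TMM), whose factors were 0.78 to 0.919 in colon EVs and 1.11 to 1.22 in BMDC EVs. Markers of each labelled source were present in it. All 9 epithelial markers were lower in BMDC EVs, where they summed to 0.377% to 0.795% of counts against 22.6% to 29.9% in colon EVs. All 6 haematopoietic markers were higher in BMDC EVs, at 29.5% to 30.8% against 0.458% to 1.08%. Of the muscle and mesenchyme markers, 2 of 6 could be tested and both were lower in BMDC EVs (0.0086% to 0.025% against 0.134% to 0.207%), as were 2 of 2 endothelial markers (0.0239% to 0.0646% against 0.0679% to 0.103%). The 2 red cell markers were too low to test, at no more than 0.00519% of counts in any library. These markers move with every difference between sources given below, and their part in it was not tested. In bulk EVs, fewer vesicles of a kind and less of a miRNA per vesicle cannot be told apart.

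The miR-30 family was lower in BMDC EVs than in colon EVs, and its members differed in how far they fell. The 8 arms held 2.51%, 2.39% and 2.40% of all counts in colon EVs 1, 2 and 3. They held 1.39%, 1.01% and 1.09% in BMDC EVs 1, 2 and 3. The groups did not overlap. On the TMM scale the sum was 28661 ± 3141 CPM in colon EVs and 9892 ± 1472 CPM in BMDC EVs (SD, n = 3 each), a log2 fold change of −1.68 (SE 0.240), or 3.20-fold lower. Scaled by library size alone, the same sum fell by 1.07 on the log2 scale. Among seed families, that of the miR-30 5p arms ranked 9th in each colon library and 12th, 16th and 16th in BMDC EVs 1, 2 and 3, with 30b-5p and 30d-5p included by name.

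With the quasi-likelihood test of edgeR, adjusted by Benjamini-Hochberg over 220 tested miRNAs, 7 of the 8 arms were lower in BMDC EVs at an adjusted p under 0.05 and 0 were higher. Over all tested miRNAs 36.4% were called lower, and 76.8% were called in either direction. The exception was 30e-3p. Values of the 2 sources did not overlap for any of the 8 arms, against 39.1% of all tested miRNAs that were lower in BMDC EVs without overlap. With scaling by library size alone, the values did not overlap for 6 of 8 arms, and the share over all tested miRNAs was not counted with that scaling. Arms 30a-3p and 30c-2-3p passed the count filter through the colon libraries only and so had to differ. They are part of the counts without overlap as well as of the calls. Among the other 6 arms 5 were called lower. The median log2 fold change of the 8 arms was −2.17, and −1.45 without those that passed through colon only, beside 0.19 for all tested miRNAs, whose quartiles were −1.89 and 2.36. That median of all miRNAs moved to 0.06, 0.39 or 0.64 with other scalings, which shifts all arms nearly alike. Relative to it, 30a-5p stood at −4.77 and 30d-5p at −1.11 on the log2 scale with TMM.

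**Figure D1:**
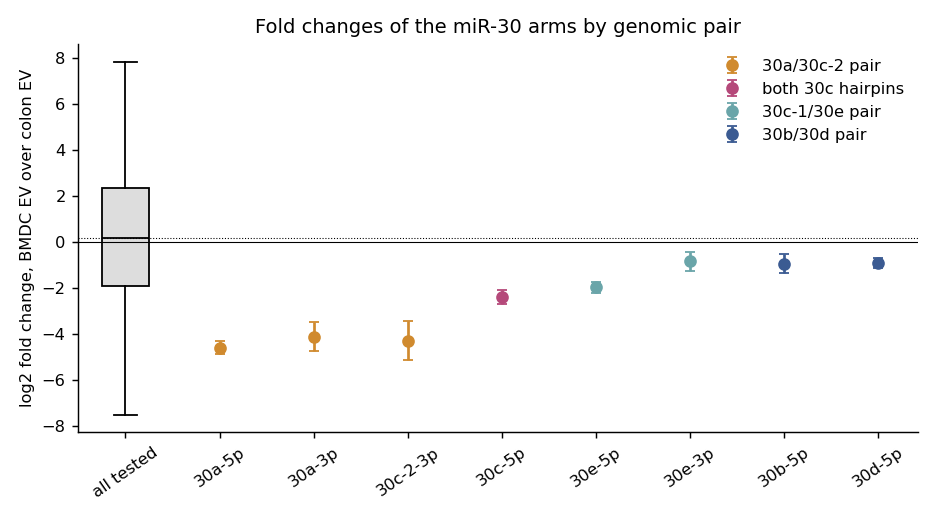
Log2 fold change of each miR-30 arm, BMDC EVs over colon EVs, with its standard error, coloured by genomic pair; the box at the left gives the median and quartiles of all 220 tested miRNAs, and its whiskers their full range. The 3 arms made only by the 30a/30c-2 pair lie between −4.58 and −4.10, those of the 30c-1/30e pair between −1.97 and −0.83, and those of the 30b/30d pair at −0.94 and −0.93. In the 30a/30c-2 pair, 30a-3p and 30c-2-3p passed the count filter through colon EVs only and so had to differ.

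30a-5p, the main product of Mir30a, had the lowest log2 fold change of the 8 arms. It stood at 6647, 4715 and 4785 CPM in colon EVs 1, 2 and 3. In BMDC EVs 1, 2 and 3 it stood at 298, 240 and 146 CPM. The highest BMDC library lay far below the lowest colon library, and the log2 fold change was −4.58 (SE 0.294, adjusted p = 9.71e-11 by edgeR's quasi-likelihood test), a 23.9-fold difference. It was 36th of the 220 tested miRNAs by mean CPM in colon EVs and 126th in BMDC EVs. The other arm of the same hairpin, 30a-3p, was read at 586, 472 and 440 CPM in colon EVs. In BMDC EVs it was read at 12.9, 90.1 and 5.03 CPM, which came from 2, 9 and 1 counts. Its fitted log2 fold change was −4.10 (SE 0.609), given as a description since the arm passed the count filter through colon EVs only. It was −5.79 without BMDC EV 2, −3.73 without BMDC EV 1 and −3.49 without BMDC EV 3. Thus both arms of Mir30a were low in every BMDC library, with BMDC EV 2 the highest for the 3p arm.

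30c-2-3p, the arm that only Mir30c-2 makes, was read at 83.4, 124 and 94.2 CPM in colon EVs 1, 2 and 3. In BMDC EVs it had 0, 2 and 0 counts. Over all libraries of a source this was 82 against 2 counts, a ratio of 15.2 per unit of depth with an exact 95% counting interval from 4.07 to 127. The interval pools the libraries of a source and covers counting error only. It is no test, since the arm passed the count filter through colon EVs only. The fitted log2 fold change of −4.29 (SE 0.845) is likewise a description, and the fitted value of an arm this low depends on the prior count. It moved to −7.60 without BMDC EV 2, the library with both counts, to −3.73 without BMDC EV 1 and to −3.58 without BMDC EV 3. Where this arm had 0 counts, 3 counts would have been 19.4 CPM in BMDC EV 1 and 15.1 CPM in BMDC EV 3.

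30c-5p, the 5p arm that both 30c hairpins make, had a fold change nearer 0 than the arms above. Colon EVs 1, 2 and 3 held 1495, 1287 and 1262 CPM. BMDC EVs 1, 2 and 3 held 324, 160 and 282 CPM. The groups did not overlap, and the log2 fold change of −2.37 (SE 0.299, adjusted p = 9.45e-07) was a 5.17-fold difference.

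30e-5p, the main product of Mir30e, was read at 8594, 5550 and 6480 CPM in colon EVs and at 1917, 1522 and 1832 CPM in BMDC EVs 1, 2 and 3. The log2 fold change was −1.97 (SE 0.230, adjusted p = 3.71e-07), so 30e-5p was 3.91-fold lower, where its near-identical relative 30a-5p was 23.9-fold lower. The 3p arm of the hairpin, 30e-3p, stood at 286, 224 and 220 CPM in colon EVs. It stood at 77.7, 120 and 206 CPM in BMDC EVs, with BMDC EV 3 just under the lowest colon library. Its log2 fold change of −0.83 (SE 0.420, adjusted p = 0.0788) did not pass the test, and without BMDC EV 3 it was −1.38 with an adjusted p of 0.00878. It was not called in 10 of 15 alternatives, with values as near 0 as −0.38 for library size alone (adjusted p = 0.413) and −0.54 without BMDC EV 1 (adjusted p = 0.281), and was called in 5, DESeq2 among them (−0.98, adjusted p = 0.0438).

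30d-5p was the most abundant arm of the family in all 6 libraries. It was read at 14119, 15010 and 12615 CPM in colon EVs 1, 2 and 3. In BMDC EVs 1, 2 and 3 it was read at 8618, 6079 and 7239 CPM. The groups did not overlap, the log2 fold change was −0.93 (SE 0.215, adjusted p = 6.97e-04), and its rank by mean CPM was 21st in both sources. With scaling by library size alone the value was −0.46 with an adjusted p of 0.0512, and the call was lost. It was kept in the other 14 of 15 alternatives. Among them were DESeq2's size factors and the upper quartile (adjusted p = 0.000234 and 0.0076 by edgeR's quasi-likelihood test).

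30b-5p, whose hairpin neighbours Mir30d, was the least abundant 5p arm in colon EVs, at 375, 258 and 264 CPM, and it stood at 155, 230 and 101 CPM in BMDC EVs 1, 2 and 3. BMDC EV 2 came close to the lowest colon library. The log2 fold change was −0.94 (SE 0.404, adjusted p = 0.0419), close to that of 30d-5p. This call was lost in 8 of 15 alternatives, among them leaving out colon EV 1, 2 or 3 or BMDC EV 1 or 3 (adjusted p up to 0.148), and scaling by library size alone (log2 fold change −0.46, adjusted p = 0.310).

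The remaining arms of these hairpins were too low to test. 30b-3p was read at 18.8 to 59.6 CPM in colon EVs and 32.4 to 80.1 CPM in BMDC EVs, and 30d-3p at 4.97 to 25.1 CPM and 0 to 30.04 CPM. The values of both overlapped between the sources. 30c-1-3p is described with the 30c hairpins below.

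**Figure D2:**
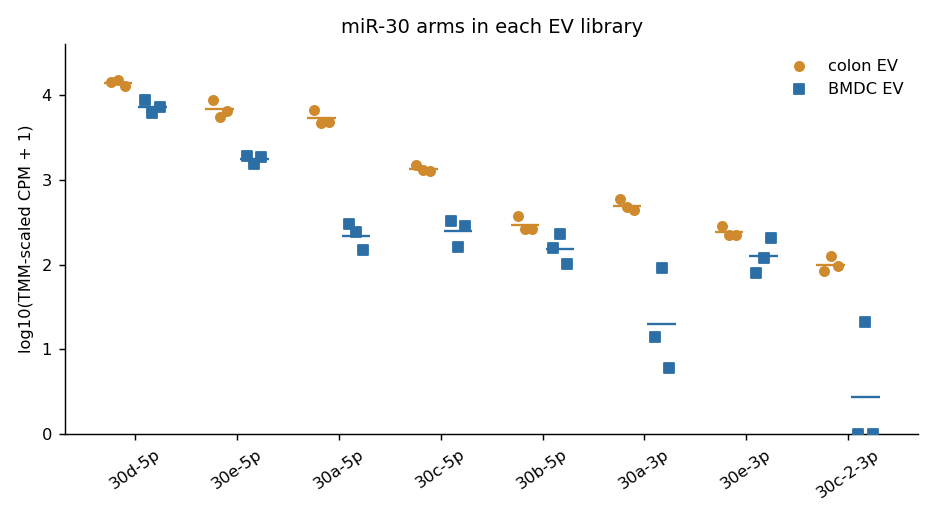
Level of each miR-30 arm in each library as log10(TMM-scaled CPM + 1), with circles for colon EVs, squares for BMDC EVs and short lines for the mean of the plotted values; 0 on the axis is a count of 0. The arms 30a-3p and 30c-2-3p passed the count filter through colon EVs only and so had to differ. Among the other listed arms, 30a-5p drops furthest between sources, while 30d-5p leads the family in both.

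The order of levels within the family was 30d-5p, 30e-5p, 30a-5p, 30c-5p, 30a-3p, 30b-5p, 30e-3p and 30c-2-3p by mean CPM in colon EVs. The arms are of nearly equal length (22 or 23 bases where RefSeq gave them), so CPM was compared between them without a length correction, although ligation can favour some ends over others. Neighbours in that order whose ranges overlapped across colon libraries were 30e-5p with 30a-5p and 30b-5p with 30e-3p, although 30e-5p exceeded 30a-5p within each library. In BMDC EVs 30d-5p and 30e-5p again came first and stood clear of each other and of the rest. Below them, 30c-5p, 30a-5p, 30b-5p and 30e-3p overlapped, with mean levels from 255 down to 135 CPM, and so did 30e-3p with 30a-3p and 30a-3p with 30c-2-3p. Among the 5p arms, 30a-5p was the third in each colon library, while in BMDC EVs it was below 30c-5p in replicates 1 and 3.

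The make-up of the family differed between sources. Of the 5p counts of the family, 30d-5p held 45.2%, 56.0% and 49.6% in colon EVs 1, 2 and 3. It held 76.2%, 73.8% and 75.4% in BMDC EVs, and each BMDC value exceeded each colon value. 30a-5p held 21.3%, 17.6% and 18.8% in colon EVs, and 2.63%, 2.92% and 1.52% in BMDC EVs. The exact 95% binomial intervals for 30a-5p were 20.6% to 21.9%, 16.6% to 18.6% and 17.6% to 20.1% in colon EVs, and 1.93% to 3.50%, 1.88% to 4.31% and 1.02% to 2.18% in BMDC EVs, and cover counting error only. 30e-5p held 20.7% to 27.5% in colon EVs and 16.9% to 19.1% in BMDC EVs. 30c-5p held 4.79% to 4.97% against 1.95% to 2.94%. 30b-5p held 0.954% to 1.20% in colon EVs and 1.05% to 2.82% in BMDC EVs, which overlapped.

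**Figure D3:**
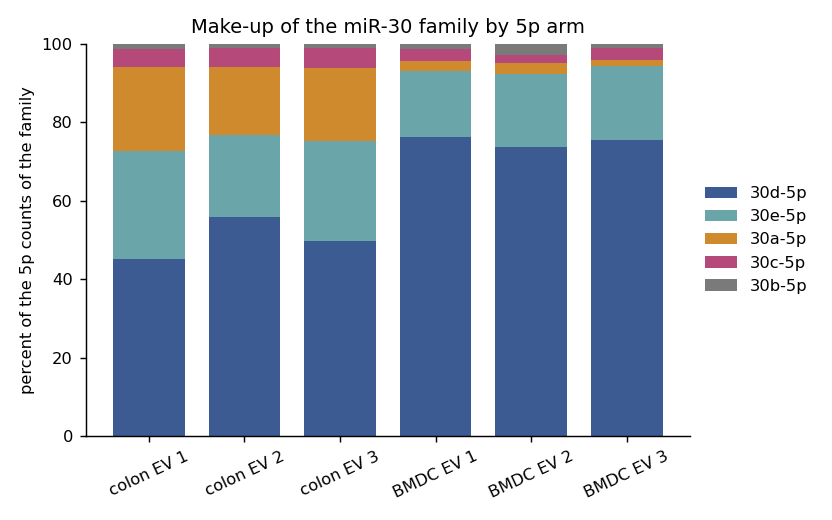
Percent of the miR-30 5p counts held by each 5p arm, 1 bar per library. In BMDC EVs the share of 30a-5p is 1.52% to 2.92%, against 17.6% to 21.3% in colon EVs, and 30d-5p takes 73.8% to 76.2%, against 45.2% to 56.0%.

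Shares within the family do not depend on the scaling of libraries. They were tested with edgeR's differential usage test, which compares the fold change of an arm with that of its seed family as a whole. The test pools the residual spread over the arms of a family or hairpin. These arms come from the same 6 libraries, so its p-values can be too small. Over 12 seed families with 38 arms, 36.8% of arms were called. In the miR-30 family 3 of 5 arms were called. 30a-5p changed by −3.06 on the log2 scale relative to the family (SE 0.261, adjusted p = 6.64e-22), and this call held without any of the 6 libraries in turn. 30c-5p changed by −0.85 (SE 0.284, adjusted p = 0.0193), and lost its call without colon EV 2, colon EV 3 or BMDC EV 2 (adjusted p from 0.0628 to 0.081). 30d-5p changed by 0.59 (SE 0.224, adjusted p = 0.0464), but its call was lost without any of the 6 libraries (adjusted p from 0.0547 to 0.121) and with the replicate number as a block (adjusted p = 0.0578). The values for 30e-5p (−0.45, SE 0.225, adjusted p = 0.151) and 30b-5p (0.58, SE 0.369, adjusted p = 0.286) did not pass. Summed, 30a-5p, 30d-5p and 30e-5p held 94.0% to 94.3% of the 5p counts in colon EVs and 95.2% to 96.0% in BMDC EVs, so most of the shift lay among these 3 arms.

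Ratios of 5p counts within a library were taken along the genomic pairs. Only 30d over 30b compares arms of a single pair, since the 30c-5p in the other ratios comes from both 30c hairpins. 30a-5p over 30c-5p was 4.45, 3.67 and 3.79 in colon EVs 1, 2 and 3. It was 0.923, 1.5 and 0.518 in BMDC EVs, below every colon library. The mean log2 ratio was 1.98 ± 0.148 in colon EVs and −0.16 ± 0.768 in BMDC EVs (SD, n = 3 each), a difference of −2.14 (exact two-sided permutation p = 0.10, adjusted p = 0.15 over 3 ratios). With 3 against 3 libraries an exact permutation test cannot go below 0.10. 30e-5p over 30c-5p was 5.75, 4.32 and 5.14 in colon EVs and 5.94, 9.52 and 6.51 in BMDC EVs. All BMDC values were higher, though BMDC EV 1 was close to colon EV 1, with a difference of 0.51 in mean log2 ratio (exact two-sided permutation p = 0.10, adjusted p = 0.15).

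30d-5p over 30b-5p, the partners on chromosome 15, was 37.7, 58.7 and 47.8 in colon EVs 1, 2 and 3. In BMDC EVs 1, 2 and 3 it was 55.5, 26.1 and 71.6. The colon range lay within the BMDC range, and the mean log2 ratios were 5.56 ± 0.319 and 5.55 ± 0.756, with a difference of −0.01 (exact two-sided permutation p = 1.0). The ratio of 30a-5p, 30d-5p and 30e-5p summed to 30b-5p and 30c-5p summed was 15.6 to 16.4 in colon EVs and 20.0 to 24.1 in BMDC EVs.

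Ratios between members of different pairs were chosen after the counts were seen and were not tested. 30a-5p over 30e-5p, the arms that differ at 1 base, was 0.773, 0.850 and 0.738 in colon EVs 1, 2 and 3. It was 0.156, 0.158 and 0.0796 in BMDC EVs, so 30a-5p was a little under 30e-5p in colon EVs and far under it in BMDC EVs. 30a-5p over 30d-5p was 0.314 to 0.471 in colon EVs and 0.0202 to 0.0396 in BMDC EVs. 30e-5p over 30d-5p was 0.370 to 0.609 and 0.222 to 0.253. For each of these ratios all BMDC libraries lay below all colon libraries.

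**Figure D4:**
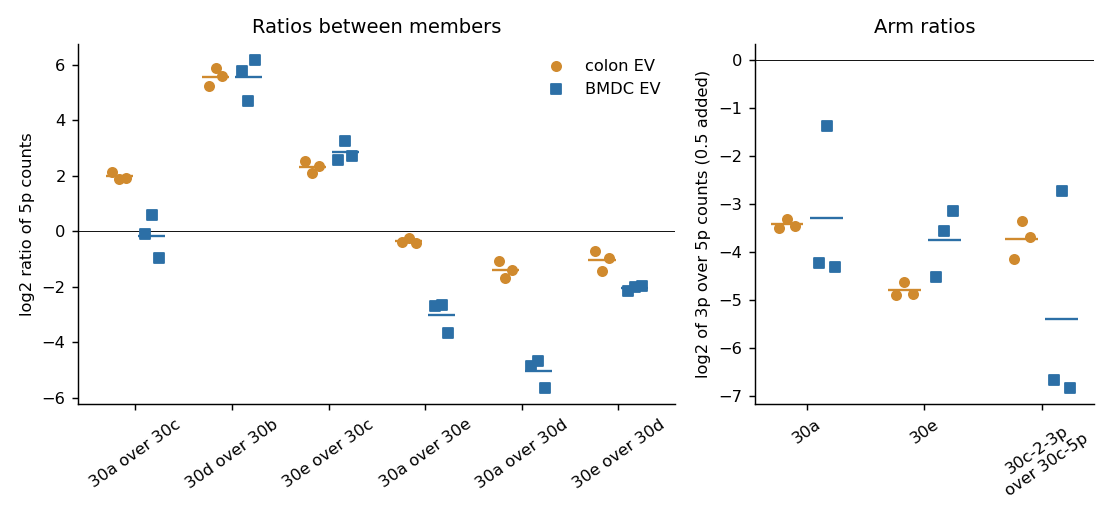
Log2 ratios of 5p counts between members (left) and of 3p over 5p counts with 0.5 added to each (right) in each library, circles for colon EVs, squares for BMDC EVs, short lines for the mean. The ratio of 30a to each of its relatives drops in BMDC EVs, that of 30d to 30b is centred at the same level in both, and the BMDC values of the 30a and 30c arm ratios are spread widely by BMDC EV 2.

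The share of counts from the 3p arm was read for the hairpins with both arms measured. For 30e it was 3.23%, 3.87% and 3.28% in colon EVs 1, 2 and 3. It was 4.06%, 7.58% and 10.04% in BMDC EVs 1, 2 and 3, above every colon value, although BMDC EV 1 lay within counting error of them (exact 95% interval 2.03% to 6.71%). The 3p arm of 30e changed by 1.13 more than the 5p arm on the log2 scale (adjusted p = 0.0724 over 40 hairpins by edgeR's differential usage test), which did not pass. Of the 40 hairpins 20.0% were called, and 0 of the 3 family hairpins were (1 of 3 had an unadjusted p under 0.05). Without BMDC EV 1 the value for 30e was 1.49 with an adjusted p of 0.0238.

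For 30a the 3p share was 8.10%, 9.13% and 8.36% in colon EVs. It was 4.17%, 27.3% and 3.33% in BMDC EVs 1, 2 and 3, from at most 9 counts of the 3p arm, so a difference was not detectable at this depth (0.48 on the log2 scale, adjusted p = 0.780). Without BMDC EV 2 the sign turned (−1.17, adjusted p = 0.310). 30c-2-3p made up 5.28%, 8.82% and 7.05% of its counts with 30c-5p in colon EVs. It made up 0%, 11.1% and 0% in BMDC EVs, where the upper exact 95% limits for the zeros were 7.11% and 6.38%. The change of −1.92 (adjusted p = 0.157) became −5.45 without BMDC EV 2, which left 0 counts of 30c-2-3p in BMDC EVs. Since 30a-3p and 30c-2-3p passed the count filter through colon EVs only, the changes for 30a and 30c are descriptions. As 30c-5p is made by both hairpins, the ratio of 30c-2-3p to 30c-5p mixes arm and hairpin.

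The 3p arms of the 30c hairpins tell Mir30c-2 from Mir30c-1, and this comparison was added after the counts were seen. Colon EVs 1, 2 and 3 had 42, 25 and 15.25 counts of 30c-2-3p against 6, 1 and 7 counts of 30c-1-3p. BMDC EVs had 0, 2 and 0 counts of 30c-2-3p against 7, 6.33 and 11.5 counts of 30c-1-3p. The share of 30c-2-3p among both was thus 87.5%, 96.2% and 68.5% in colon EVs and 0%, 24.0% and 0% in BMDC EVs. This difference is a description, since 30c-2-3p passed the count filter through colon EVs only and 30c-1-3p did not pass it. The exact 95% intervals were wide, from 45.1% upward in the colon library with the lowest share (colon EV 3) and up to 65.1% in BMDC EV 2, so counting error allows those 2 libraries to be alike. In CPM, 30c-1-3p was 4.97 to 44.0 in colon EVs and 45.3 to 60.4 in BMDC EVs, with BMDC EV 1 next to colon EV 3. Most 30c 3p counts were therefore assigned to Mir30c-2 in colon EVs and to Mir30c-1 in BMDC EVs. Some of these counts were not whole, and how far reads were divided between these 3p arms is not given in the sources used here.

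**Figure D5:**
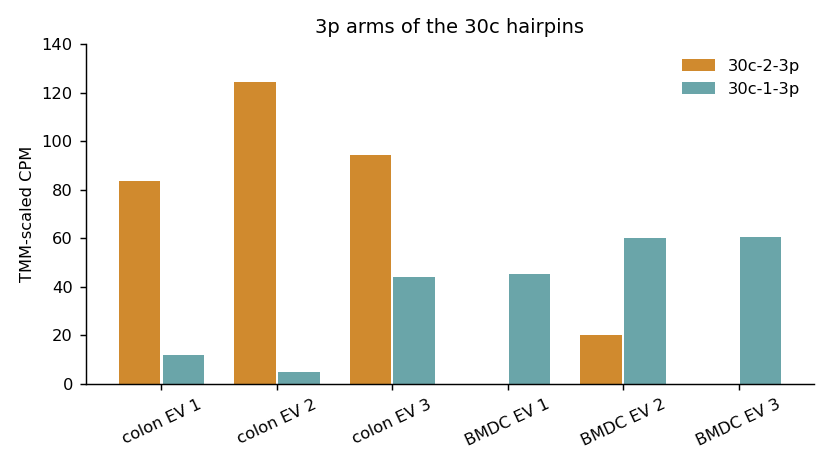
TMM-scaled CPM of the 3p arms of the 30c hairpins in each library. 30c-2-3p is the taller bar in the 3 colon libraries and 30c-1-3p in the 3 BMDC libraries, from at most 11.5 counts per BMDC library. 30c-2-3p passed the count filter through colon EVs only.

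Shares by genomic pair were taken of the counts of the listed arms and the 3 unlisted 3p arms together, leaving out 30c-5p. The arms of the Mir30a and Mir30c-2 pair held 20.1% to 23.8% of these counts in colon EVs and 1.57% to 4.14% in BMDC EVs. Those of the Mir30e and Mir30c-1 pair held 21.9% to 28.9% and 18.3% to 21.8%. Those of the Mir30b and Mir30d pair held 47.3% to 58.0% in colon EVs and 75.6% to 78.9% in BMDC EVs. For each pair the values of the sources did not overlap, with the closest approach in the Mir30e and Mir30c-1 pair. The shares of the pairs together make up all of these counts, so they cannot move separately. The share of the Mir30b and Mir30d pair rose although 30b-5p and 30d-5p were both lower in BMDC EVs (log2 fold change −0.94 and −0.93).

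The miRNAs outside the family whose levels followed its summed count most closely over the 6 libraries were mmu-miR-23b-3p, mmu-miR-26a-5p, mmu-miR-3068-5p, mmu-miR-872-5p and mmu-miR-378c. Likeness was the root mean square difference of log2 CPM after centring each miRNA on its mean, which was 0.16 for mmu-miR-23b-3p, 0.17 for mmu-miR-26a-5p and mmu-miR-3068-5p, 0.29 for mmu-miR-872-5p and 0.30 for mmu-miR-378c. Their log2 fold changes were −1.48, −1.76, −1.59, −1.48 and −2.75 in that order, beside −1.68 for the family. Since all these miRNAs share the 6 libraries and the contrast between sources, this likeness is a description.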

How the data were processed

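RNA from vesicles was turned into 6 libraries with the QIAseq miRNA kit, per the labels. The authors deposited expected counts per mature miRNA, not normalized and not always whole. The submitters' processing notes name STAR 2.7.6a, featureCounts 1.6.3 and DESeq2 1.30.1 with GRCm38 and mm10, without a role or order, and the handling of multiply mapped reads and molecular identifiers is not given in the sources used here. Reads are therefore not taken as independent molecules, and intervals and floors cover counting error only. Total counts were 83997 to 645303 per library.

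Counts were rounded. In R 4.3.3, edgeR 4.0.16 (TMM, quasi-likelihood test, no block) compared BMDC with colon EVs over the 220 miRNAs that reached 10 counts in 3 or more libraries, with Benjamini-Hochberg adjustment over all 220. A positive log2 fold change is higher in BMDC EVs. Its standard error is its size over the square root of F. Usage of 5p arms in seed families and of arms in hairpins was tested with edgeR's diffSpliceDGE on log2 scale. Exact permutation tests were two-sided. Arm ratios had 0.5 added. Libraries of a source were compared by chi-square and none were duplicates. Of 1966 names, 1675 matched a RefSeq sequence. On simulated data, 36 of 37 miRNAs changed by 2 and 17 of 25 changed by 1 on the log2 scale were recovered among 230 tested, and 3 of 168 unchanged ones were called. For changes of 2, the arm usage test recovered 10 of 10 hairpins and called 3 of 34 unchanged ones. The seed family test recovered 4 of 6 arms and called 0 of 17 arms in unchanged families. Every miRNA was simulated with the same dispersion, and the fold change simulation changed a smaller share of miRNAs than was called here. These rates may therefore not hold for the deposited data.

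Named miRNAs are the 8 arms, the other arms of their hairpins, other miRNAs with the seed, and the 5 most alike by log2 CPM (prior count 2). The members and all lists, markers included, were chosen with earlier results of these data known. Alternatives were DESeq2 1.42.0, limma 3.58.1 with voom, other scalings and filters, stricter cutoffs, a replicate block and leaving out each library.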

Additional observations from a re-analysis of the deposited data

How the results depend on the processing

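Each of the 8 arms was lower in BMDC EVs under all 15 alternatives fitted to it, and the family sum too, at log2 fold changes from −2.06 to −1.07. The number of arms called lower was 5 to 8, but 4 with a base level of at least 100. The 5 to 8 include 30a-3p and 30c-2-3p, which had to differ. With DESeq2's size factors, the upper quartile and library size alone, 8, 6 and 5 arms were called. Over all 220 tested miRNAs, 86, 75 and 70 were called lower with these scalings. Such a share was not counted for the remaining alternatives. The family's share of counts changed by −1.27 percentage points, or by −1.88 with TMM-scaled library sizes, an alternative added after seeing the data. With libraries left out in turn, the share of 30c-5p within the family changed by −0.93 to −0.75 and that of 30d-5p by 0.51 to 0.67. The arm usage values ran from −1.17 to 1.12 for 30a, 0.65 to 1.49 for 30e and −5.45 to −1.10 for 30c. The rise of 24.8 percentage points of 30d-5p was 1.58 for 30a, 30d and 30e summed, and the 30e arm difference of 1.06 was 0.45 for 30a and 30e summed; both pool arms by construction. For other changes the cause was not tested. Deviations of libraries with the same replicate number correlated at −0.15, −0.06 and −0.13, beside a mean of 0.06 for different numbers. No pairing by number was seen, though 3 libraries per source are too few to exclude it. With the replicate block, 6 arms were called lower, 30b-5p losing its call (adjusted p = 0.0686), and the 30d-5p share changed by 0.59 without a call; no other call changed with the block. Left-out libraries moved 30a-3p between −5.79 and −3.49 and 30c-2-3p between −7.60 and −3.58. Depth limits most the 3p arms in BMDC EVs, where 30a-3p and 30c-2-3p had 9 counts or fewer per library.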
